A study of Mus musculus with 9 samples.

Results

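The 35 protein-coding Hox genes of the table were analysed in mouse embryonic stem cells (mESC) cultured for 24 h in 3 media. Earlier results of these data were known when this set was settled on. Out of 29069 genes, of which 19018 were protein coding, its members were taken by gene name and biotype. Cluster A (chr6:52155590-52260880, GRCm38) held 11 of them, cluster B (chr11:96194316-96354012) 7, cluster C (chr15:102921103-103036852) 9 and cluster D (chr2:74668310-74765142) 8. By paralogue group, 6 were anterior (groups 1 to 3), 13 central (4 to 8) and 16 posterior (9 to 13). The GENCODE M21 annotation lists 39 protein-coding Hox genes, and Hoxb1, Hoxb3, Hoxb5 and Hoxd4 were not analysed here. All samples came from D3, an established mESC line adapted to growth without feeder cells, with 3 replicates per medium. Ground-state medium (GS) was N2B27, free of serum, with 20 ng/mL leukaemia inhibitory factor and the kinase inhibitors PD0325901, which blocks MEK, at 1 μM and CHIR99021, which blocks GSK-3, at 3 μM. Differentiation medium (DM) was DMEM with serum (fetal bovine, 10%) and had neither the inhibitors nor leukaemia inhibitory factor, so that DM and GS differed in base medium, serum, inhibitors and cytokine together. The NO medium was DM with 250 μM of the nitric oxide donor DETA/NO. Because the donor was given in DM, NO against DM compares the donor alone, whereas NO against GS also includes the change of medium. The same samples serve in more than one comparison (GS for both other media, DM and NO for each other too), so the comparisons are not independent. RNA of each sample came from its own dish, and the study describes its values in general as coming from independent experiments. The labels do not say whether the dishes of these libraries were grown in separate experiments, so the p-values measure the spread between these samples, which may be partly technical. One cell line was used.

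Hox genes encode homeodomain transcription factors that give cells of the embryo their position along the head-to-tail axis. Within a cluster the genes lie in the order of their use, from the anterior end, active earlier and nearer the head, to the posterior end, active later and nearer the tail. Polycomb complexes keep the clusters largely silent in mESC, and retinoic acid, Wnt signals and the Cdx transcription factors are known to open them during differentiation.

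Values are read counts that the authors divided by a size factor for each sample and rounded, called normalised counts below. From 14312996 to 27099750 assigned reads per sample were inferred from the steps between low values, and 1 read was worth 0.70 to 1.32 normalised counts, so that a floor of 3 reads lay between 2.1 and 3.97. The summed level of 8 mESC markers, among them Pou5f1 and Nanog, lay between 69104 and 76809 in 8 samples and at 41994 in NO replicate 2. The latter stood apart from the other NO samples also in 4 primitive endoderm markers, with a sum of 491 against 149 and 240. Calls in NO that were lost without this sample are named below. In these bulk samples fewer cells with a transcript and less of it per cell cannot be told apart.

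Most Hox genes were at a low level in every medium. Of the 35 genes, 27 had a mean above 5 normalised counts over the 9 samples and were tested, whereas Hoxa2, Hoxa4, Hoxa13, Hoxb2, Hoxb6, Hoxb8, Hoxc8 and Hoxd12 did not reach it, with no sample above 9. Of the 27, 13 exceeded 5 in the mean of each medium, 10 in GS and NO but not in DM, Hoxa11, Hoxd10 and Hoxd11 in NO alone, and Hoxd1 in DM alone. A member that passed through 1 medium alone had to differ, so counts over the tested members are given as a description. Per kilobase of exon, which allows levels of different genes to be compared, 1 of the 27 lay above 84.9 normalised counts, the median of 14834 protein-coding genes that were tested and had an exon length. This gene was Hoxc13, needed for hair and nail formation, with a mean level of 127 per kilobase over the 9 samples, higher than 58.7% of those genes. Hoxc12 followed with 70.6 (46.3%), Hoxb9 with 30.8 (32.2%) and Hoxb13 with 26.5 (30.0%). The lowest level per kilobase among the 27 was 0.85 for Hoxa3. Reads over more than 1 gene were excluded but shared exon bases stayed in the length, so levels of genes that share exons may be understated. Of the exon bases of Hoxa3, 27.1% are shared, and of those of Hoxd3 62.8%.

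In GS the order of the levels per kilobase was led by the posterior genes of clusters C and B. Hoxc13 reached 130 ± 6.1 normalised counts per kilobase (SD, n = 3) and Hoxc12 119 ± 7.41, and the levels of these neighbouring genes differed by less than their summed SDs. Hoxb13, a gene of the hindgut and prostate, followed with 51.8 ± 18.9 per kilobase and Hoxb9 with 39.2 ± 2.36, again closer than the SD of the former. Together these 4 genes made up 58.3% of the summed Hox mean of GS, counted without regard to length. In cluster D the highest level per kilobase in GS was that of Hoxd13 (12.5 ± 3.51), the last gene of its cluster.

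**Figure D1:**
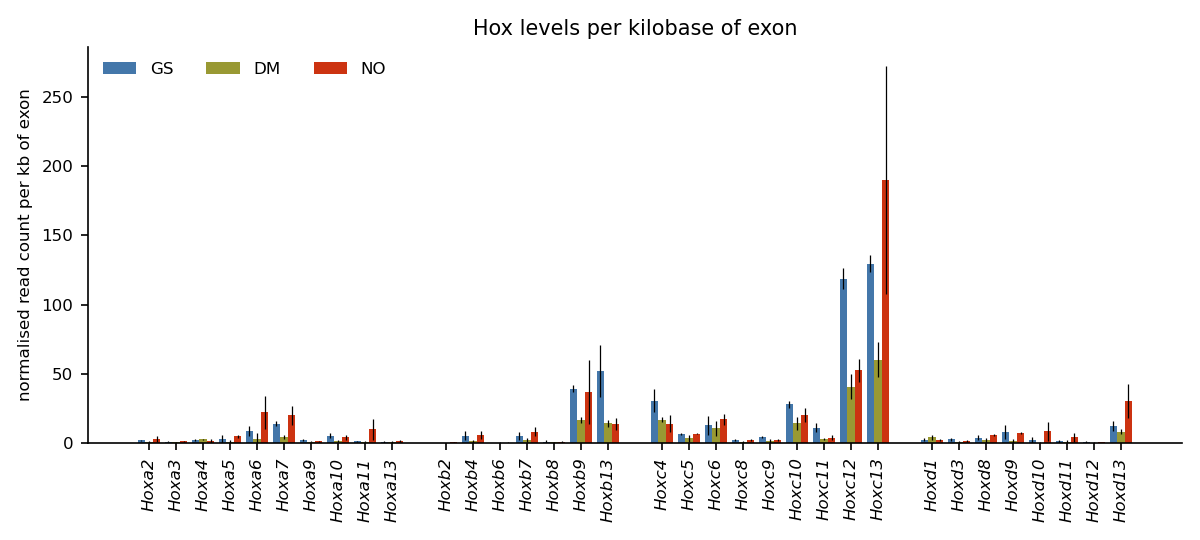
Mean normalised read count per kilobase of exon of the Hox genes reported singly, ordered by cluster and paralogue group, in GS, DM and NO (bars, mean of 3 samples; lines, SD). Hoxc13 and Hoxc12 stand above all other Hox genes in GS, at 130 and 119 per kilobase, and in NO Hoxc13 reached 190 with an SD of 82.2.

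The first comparison asks how the clusters differed after release from the ground state. In DM the Hox genes were lower than in GS in all 4 clusters: the DM mean lay under the GS mean in 31 of the 35 genes, above it in Hoxa4, Hoxb6 and Hoxd1, and equal to it in Hoxb2, which was at 0 in all samples of both media. Summed over the 35 genes, normalised counts were 1224, 1091 and 1064 in GS and 422, 557 and 488 in DM, a ratio of the means of 0.43. The ratio was 0.39 for cluster A, 0.34 for B, 0.47 for C and 0.52 for D, and all 3 DM sums lay under all 3 GS sums in each cluster. By position it was 0.50 for the anterior, 0.51 for the central and 0.41 for the posterior genes. The sums have no test, since a list of genes was chosen.

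Of the 27 tested genes, 5 fell in DM against GS past both thresholds (limma, adjusted p under 0.05 and at least a 2-fold change), beside 1.27% of all 18156 genes tested, and no Hox gene rose, beside 2.94% of all genes. The 5 were Hoxa7, Hoxb13, Hoxc11, Hoxc12 and Hoxc13. An unadjusted p under 0.05 was reached by 17 of the 27, beside 19.9% of all genes, and 26 had a fold change below 0, beside 9098 of the 18156 genes. Their median log2 fold change was −1.23, against 0.00 for all genes tested. In 13 of the 27 all 3 DM samples lay under all 3 GS samples, which held for 13.5% of all genes. Scaling to equal totals or quantile normalisation left 26 of 27 fold changes below 0, with medians of −1.20 and −1.30.

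**Figure D2:**
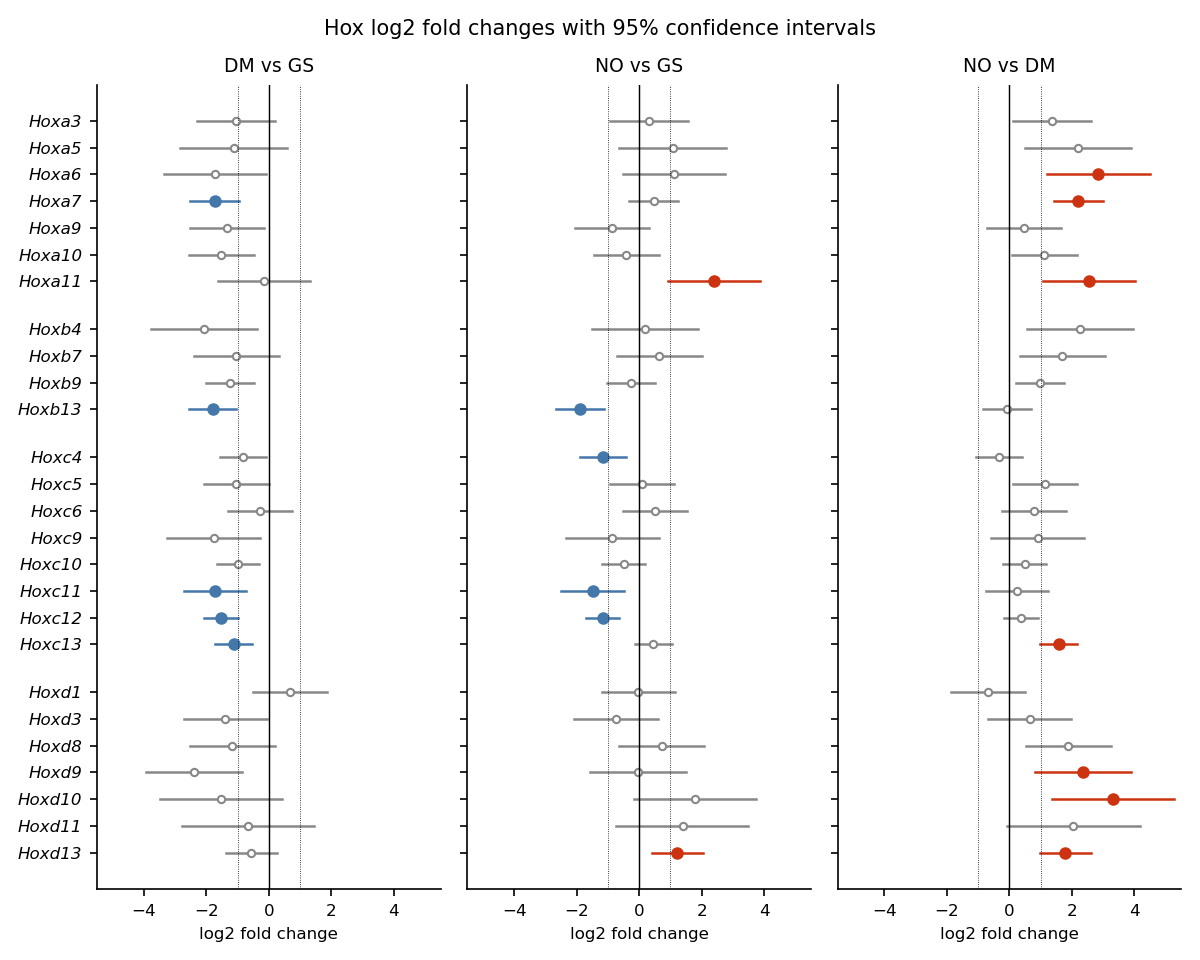
Log2 fold changes on the log2(normalised count + 1) scale (points) with 95% confidence intervals from limma (lines) of the tested Hox genes reported singly, for DM against GS, NO against GS and NO against DM, by cluster and paralogue group. Filled points passed both thresholds, red higher and blue lower, and dotted lines mark a 2-fold change. In DM against GS all points but that of Hoxd1 lie left of 0, and in NO against DM all but those of Hoxb13, Hoxc4 and Hoxd1 lie right of it.

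Cluster C held 3 of the 5 genes. Hoxc12, a posterior gene with few known roles, was at 124, 129 and 114 normalised counts in GS, falling to 32, 50 and 44 in DM. The groups stood far apart, and the log2 fold change was −1.54 ± 0.25 (SE) with a limma adjusted p of 0.00314. Hoxc13 was at 319, 334 and 304 in GS and at 123, 182 and 140 in DM. All DM samples were lower, by −1.12 ± 0.27 on the log2 scale (limma adjusted p = 0.0295). Hoxc11, a gene of the hindlimb and the lower spine, was at 30, 20 and 17 in GS and at 5, 8 and 5 in DM. Again the groups did not overlap (log2 fold change −1.73 ± 0.46, limma adjusted p = 0.0461).

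Hoxb13 was at 158, 75 and 110 normalised counts in GS and at 26, 29 and 38 in DM. It fell by 1.80 on the log2 scale (SE 0.35, limma adjusted p = 0.00951), and even the lowest GS sample was above every DM sample. Hoxb9, which patterns the thorax and had the highest mean of cluster B, was at 94, 104 and 105 in GS and at 45, 36 and 46 in DM. Although its groups did not overlap either, the log2 fold change of −1.24 ± 0.35 missed the threshold (limma adjusted p = 0.06).

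In cluster A, Hoxa7, a gene of the thoracic region, was at 40, 45 and 34 normalised counts in GS and at 14, 7 and 14 in DM. The DM samples were all lower, with a log2 fold change of −1.73 ± 0.36 (limma adjusted p = 0.0134). Of its exons, 20.4% are shared with Hoxaas3 on the opposite strand, and the use of the strand in counting was not stated.

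In cluster D no gene passed in this comparison. Hoxd9 had the most negative log2 fold change of all 27 tested genes (−2.41 ± 0.70, limma adjusted p = 0.0667), and Hoxd1 was the 1 gene with a positive one (0.67 ± 0.54, limma adjusted p = 0.546). Hoxd13 was at 35, 37 and 21 in GS and at 23, 23 and 15 in DM, and these groups overlapped.

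The number of genes that fell depended on single libraries. It was 2 without GS replicate 1 or GS replicate 2, and 3 without GS replicate 3, DM replicate 1 or DM replicate 3. Hoxc12 was called in all 9 fits that left out 1 library, Hoxb13 in 8, Hoxa7 in 7, Hoxc13 in 4 and Hoxc11 in 3.

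The second comparison asks what the nitric oxide donor added to DM. Hox genes were higher in NO than in DM in every cluster: the NO mean exceeded the DM mean in 30 of the 35 genes, was under it in Hoxa4, Hoxb13, Hoxc4 and Hoxd1, and equalled it in Hoxb6. Summed over the 35 genes, normalised counts were 836, 1602 and 1088 in NO against 422, 557 and 488 in DM, a ratio of the means of 2.4. By cluster the ratio was 3.46 for A, 1.91 for B, 2.20 for C and 3.43 for D. In each cluster all NO sums lay above all DM sums, the highest being that of NO replicate 2. For cluster C the ratio was 1.31 without Hoxc13. Anterior genes had a ratio of 2.13, central genes 2.07 and posterior genes 2.54, or 2.07 without Hoxc13.

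**Figure D3:**
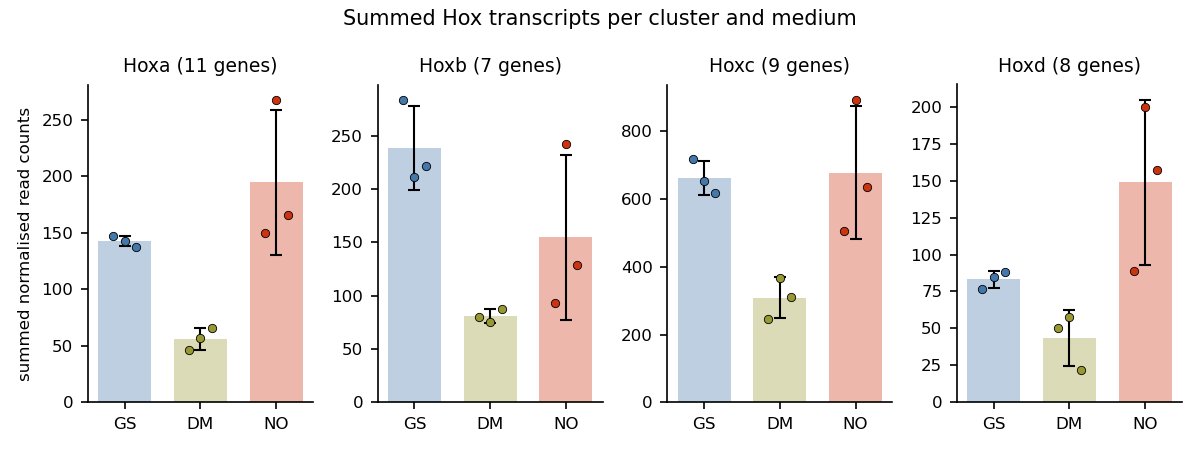
Summed normalised read counts of the Hox genes of each cluster in GS, DM and NO (points, single samples; bars, mean; lines, SD of 3 samples). All 4 DM means are the lowest of their cluster, and NO replicate 2 is the highest NO sample in all 4.

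Of the 27 tested genes, 7 rose in NO against DM past both thresholds, beside 6.78% of all genes tested, and no Hox gene fell, beside 1.77%. Most Hox genes are low, and among the 7109 tested genes with a mean of 5 to 100 normalised counts, 726 were called higher in NO. The 7 were Hoxa6, Hoxa7 and Hoxa11 of cluster A, Hoxc13 of cluster C and Hoxd9, Hoxd10 and Hoxd13 of cluster D, and none was of cluster B. Hoxa11 and Hoxd10 among the 7, and Hoxd11 among the 27, had a mean above 5 in NO alone. Being high in NO was thus part of why these were tested, and the count of 7 is a description. An unadjusted p under 0.05 was found for 16 of the 27, beside 31.3% of all genes. The median log2 fold change was 1.33, against 0.00 for all genes, and 24 of 27 were above 0, beside 9093 of the 18156 genes. With equal totals 24 remained above 0 (median 1.41), and with quantile normalisation 22 (median 0.98). In 16 of the 27 all NO samples lay above all DM samples, compared with 18.1% of all genes. Among the 7109 genes with a mean of 5 to 100, the median log2 fold change was 0.18 and 4192 were above 0. In 1521 of those 7109 all NO samples lay above all DM samples.

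Hoxc13 was at 296, 691 and 417 normalised counts in NO, against 123, 182 and 140 in DM. The groups were separate, NO replicate 2 being the highest, and the log2 fold change was 1.58 ± 0.27 (limma adjusted p = 0.00531). Hoxc13 made up 39.8% of the summed Hox mean in NO and 30.3% in DM. Its neighbours Hoxc12 and Hoxc11 did not pass, with log2 fold changes of 0.37 ± 0.25 and 0.25 ± 0.46 (limma adjusted p = 0.335 and 0.757). Hoxc12 was at 48, 50 and 64 in NO, within or just above its range in DM.

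In cluster A, Hoxa7 was at 46, 79 and 46 normalised counts in NO, against 14, 7 and 14 in DM. All NO samples were higher, by 2.21 ± 0.36 on the log2 scale (limma adjusted p = 0.00435). Hoxa6, its anterior neighbour with a role in the vertebral column, was at 8, 29 and 21 in NO and at 0, 1 and 7 in DM. The lowest NO sample was only 1 normalised count above the highest DM sample, and the log2 fold change was 2.85 ± 0.75 (limma adjusted p = 0.0291). Hoxa11, a gene of the forearm, the uterus and the kidney, was at 6, 41 and 21 in NO and at 3, 3 and 1 in DM. Its log2 fold change was 2.55 ± 0.67 (limma adjusted p = 0.0291), and the DM samples were at about the floor of 3 reads. Of the exons of Hoxa11, 35% are shared with the antisense gene Hoxa11os, whose own count was at most 10, in NO replicate 2.

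In cluster D, Hoxd13, which shapes the digits, was at 45, 106 and 75 normalised counts in NO and at 23, 23 and 15 in DM. The groups were separate, with a log2 fold change of 1.78 ± 0.37 (limma adjusted p = 0.0119). Hoxd10, a gene of the lumbar spinal cord and hindlimb, was at 4, 29 and 12 in NO and at 1, 0 and 0 in DM. These are an estimated 38 reads against 1, a ratio per depth of 45.1 with an exact counting interval (95%) from 7.62 to 1829, which covers counting error only. The fitted log2 fold change of 3.31 ± 0.89 (limma adjusted p = 0.0315) depends on the pseudocount. Hoxd9, expressed with Hoxd10 in limb and lumbar tissue, was at 13, 15 and 16 in NO and at 3, 6 and 0 in DM. Its NO samples lay close together and above those of DM, with a log2 fold change of 2.36 ± 0.70 (limma adjusted p = 0.0449), a call that was lost with the replicate number as a block (adjusted p = 0.055).

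Promoter sequence of 2 of these genes is shown because both lie in cluster D, rose in NO against DM and differ in the motifs found before their start. Sequences are the 250 bases before the RefSeq start (GRCm38.p6, plus strand), chr2:74667975-74668224 for Hoxd13, which lies between annotated genes, and chr2:74691641-74691890 for Hoxd10, which lies in the gene Gm28309 outside its exons. Capitals mark TATAAA, known as the TATA box, in Hoxd13, where it overlaps its own copy on the other strand, and AGGTCA, known as the half-site of retinoid receptors, in Hoxd10, where it is read on the other strand.
Hoxd13: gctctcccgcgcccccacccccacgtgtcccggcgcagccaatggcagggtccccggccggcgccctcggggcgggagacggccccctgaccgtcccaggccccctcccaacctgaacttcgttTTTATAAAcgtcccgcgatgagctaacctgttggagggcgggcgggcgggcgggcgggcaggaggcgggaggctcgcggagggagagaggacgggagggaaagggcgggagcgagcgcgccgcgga
Hoxd10: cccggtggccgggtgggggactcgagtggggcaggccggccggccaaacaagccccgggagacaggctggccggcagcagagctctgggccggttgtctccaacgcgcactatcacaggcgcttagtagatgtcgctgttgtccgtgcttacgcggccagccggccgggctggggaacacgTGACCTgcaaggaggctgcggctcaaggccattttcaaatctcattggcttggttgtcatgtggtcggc
Both strands were searched for TATAAA, for the half-site AGGTCA, for the Cdx motif TTTATNG and for CACCTG, an E-box read by Snail and Zeb factors. Of these TATAAA and the Cdx motif can overlap. Of the 35 genes, 20 had 22 such windows. TATAAA was present in 3 of them (13.6%, against 8.5% of 18517 windows of genes in the table), AGGTCA in 5 (22.7%, against 12.5%), the Cdx motif in 1 (4.5%, against 7.4%) and the E-box in none (0.0%, against 17.3%). AGGTCA was found before the RefSeq start of Hoxb4, Hoxc4, Hoxd3, Hoxd8 and Hoxd10, of which Hoxd10 alone rose in NO against DM and Hoxc4 fell in NO against GS. All 250 bases of the Hoxc4 window lie in an annotated exon of Hoxc4 itself, and the Hoxd3 window holds 66 annotated exon bases. The median observed-to-expected ratio of CG was 0.76 in the Hox windows and 0.61 in all. A match is a description of letters, and none of these windows was measured for binding.

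Without NO replicate 2, Hoxa7, Hoxc13 and Hoxd13 were called in NO against DM. The number was also 3 without NO replicate 3 or DM replicate 1, and 11 without NO replicate 1. Hoxa7, Hoxc13 and Hoxd13 were called in all 9 fits that left out 1 library, Hoxa6 in 5, Hoxa11 and Hoxd10 in 4 and Hoxd9 in 3. Among the 27 genes, NO replicate 2 had the highest NO value in 13, replicate 1 in 6 and replicate 3 in 7, with 1 tie.

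The third comparison sets NO against GS. Here the Hox genes did not move together: the NO mean was above the GS mean in 20 of the 35 genes and under it in 15. The summed count had a ratio of 1.04, with 836, 1602 and 1088 in NO around the GS values of 1064 to 1224. By cluster the ratio was 1.36 for A, 0.65 for B, 1.02 for C and 1.79 for D, and 0.61 for C without Hoxc13. The sums of cluster D were 89, 200 and 157 in NO and 77, 85 and 88 in GS, and those of cluster A 150, 268 and 166 against 147, 143 and 138, all NO samples being higher in both. In clusters B and C the sums overlapped.

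Of the 27 genes, Hoxa11 and Hoxd13 rose in NO against GS, beside 10.1% of all genes tested, and Hoxb13, Hoxc4, Hoxc11 and Hoxc12 fell, beside 1.64%. Hoxa11 had passed the minimum mean through NO alone, so being high there was part of why it was tested. All NO samples were above all GS samples in 3 genes and under them in 5, where 20.9% and 18.3% of all genes were. The median log2 fold change was 0.11 (15 above 0 and 12 below), against −0.02 for all genes. Among the 7109 tested genes with a mean of 5 to 100 the median was 0.21, with 4264 above 0 and 2842 below. The sign of the Hox median depended on the scaling. It was −0.34 after quantile normalisation, which moved the median of all genes to −0.11, and 0.21 with equal totals. Quantile normalisation also left both higher calls under the threshold.

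Hoxa11 was at 6, 41 and 21 normalised counts in NO and at 2, 2 and 4 in GS, where it was at about the floor. It rose by 2.39 ± 0.67 on the log2 scale (limma adjusted p = 0.0286), and the lowest NO sample was close to the highest GS sample. Hoxd13 was at 45, 106 and 75 in NO and at 35, 37 and 21 in GS, with a log2 fold change of 1.21 ± 0.37 (limma adjusted p = 0.0403) and no overlap.

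**Figure D4:**
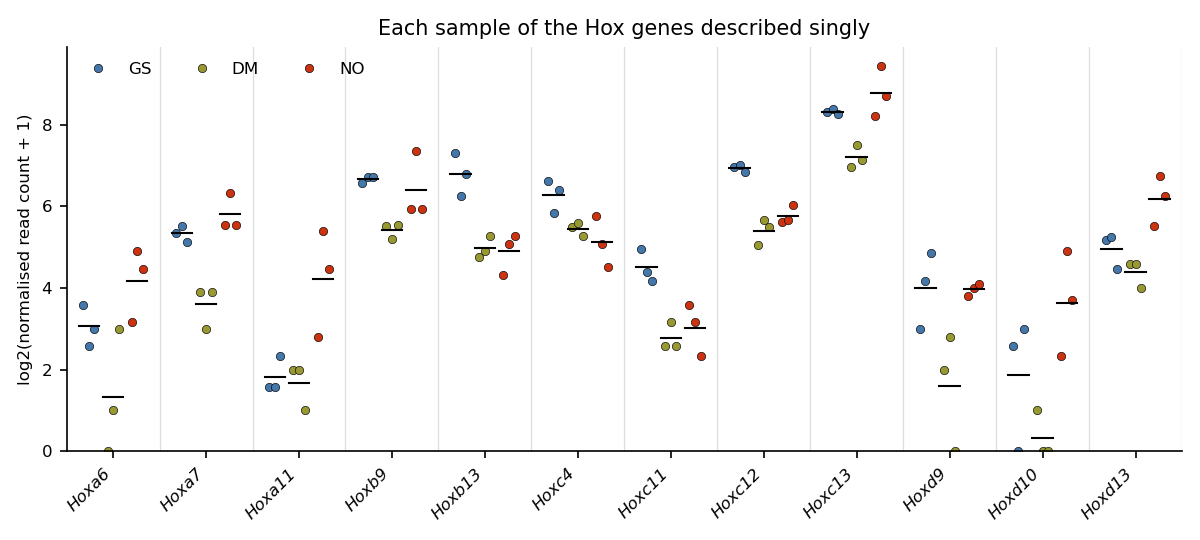
Log2(normalised count + 1) of each sample (points) of the Hox genes described singly, with the mean of each medium (black line), in GS, DM and NO. Hoxb13, Hoxc11 and Hoxc12 are lower in DM and NO than in GS, Hoxa7 and Hoxc13 are low in DM alone, and Hoxa11 and Hoxd13 are highest in NO.

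Hoxb13 was at 19, 33 and 38 in NO, far under the GS values of 158, 75 and 110 (log2 fold change −1.89 ± 0.35, limma adjusted p = 0.00399). Hoxc12 was at 48, 50 and 64, under the GS values of 124, 129 and 114 (−1.17 ± 0.25, limma adjusted p = 0.00738). Hoxc11 was at 11, 8 and 4, under 30, 20 and 17 (−1.48 ± 0.46, limma adjusted p = 0.0424). In these 3 genes the NO samples overlapped those of DM, and both lay under GS. Hoxc4, the most anterior gene of its cluster and one used in the neck region, was at 53, 33 and 22 in NO, 44, 47 and 38 in DM and at 97, 56 and 83 in GS. It fell in NO against GS (−1.16 ± 0.34, limma adjusted p = 0.0336) and missed the threshold in DM against GS (−0.83 ± 0.34, limma adjusted p = 0.197).

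Hoxa7 and Hoxc13, which were low in DM, were near their GS values in NO, with log2 fold changes of 0.47 (95% interval −0.31 to 1.25) and 0.46 (−0.12 to 1.05) in NO against GS. Hoxb9 was at 60, 164 and 60 in NO, spread around 94 to 105 in GS (−0.26, 95% interval −1.03 to 0.51). All NO samples of Hoxa7 still lay above all of its GS samples. A missed threshold does not show that these levels were alike.

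Without NO replicate 2 the calls in NO against GS were Hoxb13 and Hoxc12. Their number was 2 also without GS replicate 1, GS replicate 3 or NO replicate 3, and 3 without GS replicate 2, DM replicate 1 or DM replicate 2. Hoxb13 and Hoxc12 were called in all 9 fits that left out 1 library, Hoxa11 in 4, Hoxc4 in 3 and Hoxc11 and Hoxd13 in 2.

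Along the clusters, the tested genes were unevenly spread, with 14 posterior, 9 central and 4 anterior, and calls are given beside these numbers. In DM against GS, 4 of 14 tested posterior genes, 1 of 9 central genes and 0 of 4 anterior genes fell, beside 1.27% of all genes. In the comparison of NO with DM, 5 of 14 posterior, 2 of 9 central and 0 of 4 anterior genes rose, beside 6.78% of all genes. There an unadjusted limma p under 0.05 was reached by 7 of 14 posterior, 7 of 9 central and 2 of 4 anterior genes, beside 31.3%. In NO against GS, 2 of 14 posterior genes rose, beside 10.1% of all genes, while 3 of 14 posterior genes and 1 of 9 central genes fell, beside 1.64%. The median log2 fold change in DM against GS was −1.14 for the anterior, −1.13 for the central and −1.43 for the posterior genes, and in NO against DM 0.99, 1.89 and 1.05. Hoxa11, Hoxd10 and Hoxd11, which passed the minimum mean through NO alone, are all posterior, and Hoxd1, which passed through DM alone, is anterior. Being high in 1 medium was part of why these were tested, so the counts and medians by position are a description. Any difference between position classes was not tested.

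Inside the clusters lie 21 listed transcripts that are not protein coding, of which 3 were tested. Hotair, a long non-coding RNA made between Hoxc11 and Hoxc12 and studied for its effect on cluster D, was at 34, 30 and 36 normalised counts in GS, at 8, 7 and 0 in DM and at 7, 9 and 8 in NO. It fell in DM against GS (log2 fold change −3.04 ± 0.71, limma adjusted p = 0.0253) and missed the threshold in NO against GS (−1.93 ± 0.71, limma adjusted p = 0.075), although no NO sample overlapped GS. Both of its coding neighbours, Hoxc11 and Hoxc12, were among the genes that fell in DM and in NO against GS.

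Of the 3 Cdx factors, homeodomain activators of the central and posterior Hox genes, Cdx1 and Cdx2 fell in DM against GS and in NO against GS. Cdx1 was at 720, 660 and 517 normalised counts in GS, at 22, 20 and 16 in DM and at 51, 46 and 52 in NO. Its log2 fold change was −4.96 ± 0.22 in DM against GS (limma adjusted p = 1.25e-06) and 1.33 ± 0.22 in NO against DM (limma adjusted p = 0.00498), so that it rose in NO against DM while staying far under GS. Cdx2 was at 54, 75 and 46 in GS, at 0, 4 and 0 in DM and at 3, 14 and 5 in NO, and its difference between NO and DM did not pass (limma adjusted p = 0.0679), except with the replicate number as a block (adjusted p = 0.0285).

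Of 8 genes of the posterior growth zone and nascent mesoderm, 6 were tested. T (Brachyury) and Nkx1-2 fell in DM against GS and in NO against GS, and Wnt3a, a Wnt ligand of the tail bud, rose in NO against GS. All 3 rose in NO against DM. Wnt3a was at 24, 39 and 22 normalised counts in GS, at 14, 23 and 27 in DM and at 50, 119 and 72 in NO (NO against DM 1.82 ± 0.39, limma adjusted p = 0.013). T was at 137, 183 and 131 in GS, at 10, 1 and 0 in DM and at 8, 28 and 22 in NO, and its NO and DM samples overlapped (NO against DM 2.70 ± 0.74, limma adjusted p = 0.0342). Without NO replicate 2 the call of T was lost in NO against DM (adjusted p = 0.108), as was that of Wnt3a in NO against GS (adjusted p = 0.0855).

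Of 18 genes of the retinoic acid pathway, 14 were tested. In DM against GS, the receptor Rarg and the binding proteins Crabp1 and Crabp2 rose. In NO against DM 5 rose and none fell, the 4 with the smallest adjusted p being the degrading enzymes Cyp26b1 and Cyp26c1, the synthesising enzyme Aldh1a3 and the retinol transporter Stra6. Cyp26b1 was at 18, 11 and 9 normalised counts in GS, at 9, 8 and 21 in DM and at 48, 238 and 85 in NO (NO against DM 3.00 ± 0.56, limma adjusted p = 0.00763). Against GS 5 rose in NO, among them Rarg, the partner receptor Rxra, Crabp2 and Cyp26b1, and none fell. Without NO replicate 2, Cyp26b1 alone of the 5 was called in NO against DM, with adjusted p-values of 0.114 to 0.166 for the other 4 (0.0588 for Aldh1a3 and 0.0638 for Aldh1a2 with all samples and the replicate block), and Rxra was just under a 2-fold change in NO against GS (log2 fold change 0.96).

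Of 9 cofactors of the TALE class, which bind DNA together with Hox proteins, all were tested and none passed in DM against GS. Meis1 and Pknox2 rose in NO against GS. In NO against DM Pknox2 rose (1.18 ± 0.25, limma adjusted p = 0.0124). Pknox2 was at 81, 95 and 87 normalised counts in DM and at 153, 280 and 184 in NO. Without NO replicate 2 it was not called in NO against DM, with a log2 fold change of 0.93.

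Markers of other cells were set beside these results, and their part in them was not tested. The 8 fibroblast markers, listed because feeder cells carry Hox transcripts, had sums of 318 to 496 in GS, 412 to 447 in DM and 381 to 406 in NO. Among them Postn and Lum were at 3 or less in every sample, Thy1 rose in DM against GS, Thy1 and Col1a1 rose in NO against GS, and Col1a1 rose in NO against DM. The 5 nascent mesoderm markers summed to 448 to 557 in GS, 189 to 233 in DM and 164 to 197 in NO, where T and Eomes fell in both media against GS and Mesp1 rose in NO against GS. The 4 primitive endoderm markers summed to 79 to 136 in GS, 59 to 128 in DM and 149 to 491 in NO, and Gata6 alone of them passed, rising in NO against both other media. Of the 6 neural markers, with sums of 943 to 1369 in GS, 1042 to 1344 in DM and 743 to 1095 in NO, Pax6 alone passed, falling in NO against DM, while Neurog2 was at 1 or less in every sample. Without NO replicate 2 the calls of Col1a1 in both NO comparisons and of Gata6 and Mesp1 in NO against GS were lost. None of the 8 mESC markers passed both thresholds in any comparison.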

How the data were processed

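Per the study, the authors depleted total RNA of ribosomal RNA, sequenced it on an Ion Torrent Proton, trimmed reads with Reaper, aligned them to GRCm38 with STAR 2.4.0a and counted them over exons with featureCounts 1.4.5-p1, ambiguous reads excluded. The use of strand was not stated. The deposited values are a score per gene, the counts normalised with DESeq2 by the authors and rounded to whole numbers. They are not raw counts, so no count model was fitted. A column of sums over samples was not used.

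The 18156 genes whose mean exceeded 5 were taken to log2(value + 1) and fitted with limma 3.58.1 in R 4.3.3 (trended moderation, all 9 samples in one fit, no covariate, two-sided, Benjamini-Hochberg adjustment over all genes tested). A call needed an adjusted p under 0.05 and a log2 fold change of 1 or more in size. The fit was run on simulated data with the same variability beyond counting error for every gene and no outlying library. NO replicate 2 stood apart in the real samples, so the simulation does not vouch for the calls here. Fold changes on this scale understate changes of low genes. Groups and replicate numbers came from the labels. Same-numbered samples deviated together in NO and DM (correlations of 0.16, 0.17 and 0.30), and not in the other pairs of media, so blocked values are given beside NO against DM where they change a call.

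Members followed from gene name and biotype, but this set of genes and the gene lists were settled on with earlier results of these data known. Each sample is given for every Hox gene called in any comparison and for the highest mean of each cluster, the other members by counts and ranges. Some genes are included in counts and sums and are not reported singly here. Of the lists, called genes are named, at most 4 per list and comparison by adjusted p. Exon lengths and overlaps came from GENCODE M21 and promoter windows from RefSeq (GRCm38.p6). Alternatives changed the samples fitted, block, minimum mean, pseudocount, minimum fold change, scaling and weights, and left out each replicate.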

Additional observations from a re-analysis of the deposited data

How the results depend on the processing

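In DM against GS, 5 Hox genes were called, and 3 with a minimum mean of 50 or vooma weights and 0 with a minimum log2 fold change of 2, where, at any fold change, an unadjusted p under 0.05 was reached by 17. In NO against GS, 6 were called, and 3 with only the 6 samples compared, with no minimum mean or with a minimum mean of 50, and 1 with a minimum log2 fold change of 2. In NO against DM, 7 were called, and 4 with only the 6 samples compared or vooma weights and 1 with a minimum mean of 50, under which 5 Hox genes were tested. Leaving out 1 replicate gave 2 to 6 calls in DM against GS, 2 to 6 in NO against GS and 3 to 11 in NO against DM. With the replicate number as a block the counts were 4, 6 and 6, the calls lost being Hoxc11 in DM against GS (adjusted p = 0.0579) and Hoxd9 in NO against DM (adjusted p = 0.055). The block changed no other Hox call. Same-numbered samples did not deviate together in DM and GS (mean correlation −0.13) or NO and GS (−0.03). No fold change of a Hox gene called in a comparison reversed in that comparison under the alternatives run, and fold changes that missed the threshold were not followed. The cause of the lost calls was not tested. Of all genes called, 86% were higher in NO against GS and 79.3% in NO against DM, and 67.5% and 65.1% after quantile normalisation. Depth limits the Hox genes near the floor of 3 reads, among them the 8 not tested and Hoxd10 and Hoxa11 in DM.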

Other observations

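The even-skipped genes Evx1 and Evx2 lie beyond the posterior ends of clusters A and D. Evx2, next to Hoxd13, was at 0 in all GS and DM samples and at 0, 8 and 3 normalised counts in NO, too low to be tested. Evx1 was at 1, 5 and 4 in GS, at 12, 13 and 4 in DM and at 8, 8 and 17 in NO, and did not pass in any comparison (limma adjusted p = 0.0956 in NO against GS). Of the ParaHox genes, Pdx1, a gene of the pancreas and duodenum, was at 7, 5 and 1 in GS, at 6, 4 and 2 in DM and at 6, 46 and 22 in NO, with NO replicate 1 inside the range of the other media (limma adjusted p = 0.086 in NO against DM). Gsx1 and Gsx2 were not above 15 in any sample.

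Beyond the ends of the clusters, 40 neighbouring genes had a row and 38 were tested. Ttll6, a tubulin-modifying enzyme on the posterior side of cluster B, passed in NO against GS (log2 fold change 1.68 ± 0.22, limma adjusted p = 0.00086) and in NO against DM (1.5 ± 0.22, limma adjusted p = 0.00291), and it was the one gene of the 38 that passed in any comparison without the replicate block. Ttll6 was at 226, 169 and 213 normalised counts in GS, at 224, 245 and 216 in DM and at 489, 912 and 612 in NO, all above both other media. Hoxb13, the nearest Hox gene, fell in NO against GS. With the block, Copz2 also passed in NO against DM (log2 fold change −1.14, adjusted p = 0.0352), at 174, 153 and 193 in DM and at 146, 36 and 88 in NO.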
